A study of Mus musculus with 12 samples.

Results

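The genes described here are 44 genes of the cell cycle and of DNA replication, chosen by symbol from a count table of 25919 rows. All 44 were in the table. The study sequenced poly(A) RNA of liver cells from C57BL/6 mice aged 7 weeks, in bulk and from the 3' end. Of its 12 libraries in 4 groups, 6 were used: 2 labelled Kupffer cells at day 0 (called Kupffer day 0 a and b here) and 4 labelled CD40 at day 2 (CD40 day 2 a, b, c and d). The letters are names only, since the columns carry no replicate number. All 6 share strain, tissue and age, and no allele, agent or sorting gate is named for either group. What the days are counted from is not stated in the labels, nor whether each library came from its own animal, so the p-values cover library-to-library spread that may be technical. Label and day differ together between the 2 groups, so the effects of cell type and time cannot be told apart. Columns of the other 2 groups (Kupffer cells at day 7 and the group labelled Ly6C CD40 neg at day 2) are not analysed here by gene, because their values seem to have been sorted apart from the gene names.

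A cell that enters division first makes D-type cyclins, which with Cdk4 and Cdk6 phosphorylate the retinoblastoma protein and release E2F transcription factors. E2F targets include cyclin E, the Mcm helicase that opens replication origins, the clamp Pcna and the enzymes that make deoxynucleotides. Later, cyclin A, cyclin B and Cdk1 drive mitosis, together with the Aurora, Polo-like and Bub kinases and the anaphase-promoting complex. Kupffer cells are the resident macrophages of the liver and can renew themselves by division, whereas monocytes that reach tissue from blood have mostly left the cycle.

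Total counts ran from 688498 to 2271228 per library, so that 1 count was worth 0.455 to 1.41 CPM (the count scaled to a common library total adjusted by the TMM method). The shallowest were Kupffer day 0 b (688498) and CD40 day 2 b (725683). The Kupffer libraries held much RNA of liver sinusoidal endothelial cells: 13 measured markers of these cells, among them Clec4g and Ehd3, summed to 23180.0 and 25109 CPM, against 4755 and 4196 CPM for 11 Kupffer cell markers, led by Clec4f and Cd5l. In CD40 day 2 these sums were 1374, 769.6, 925 and 936 CPM and 127, 89.1, 98.3 and 110.2 CPM. All 13 endothelial markers and 10 of the 11 Kupffer markers were lower in CD40 day 2, while 8 of 9 classical monocyte markers, led by Ly6c2 and Plac8, were higher (edgeR, adjusted p under 0.05). Markers of stellate cells and fibroblasts, led by Ecm1 and Dcn, were lower too, in 9 of 9 cases, with sums of 1683 and 1428 CPM against 79.2, 35.4, 122 and 98.9 CPM. In bulk samples fewer cells of a type and less RNA per cell cannot be told apart. The part of these cell types in the results below was not tested.

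With the filter on low counts, few of the 44 genes differed between the groups. Of the 40 that passed the filter on low counts, 5 were higher in CD40 day 2 (Ccne1, E2f1, Gins2, Ccnb1 and Hmgb2) and 3 were lower (Cdk4, Cdkn2c and Cenpa), by edgeR's quasi-likelihood test with Benjamini-Hochberg adjustment over all genes. That is 20% of the members tested, against 53.4% of all 9852 genes tested. Over all genes 23.2% were higher and 30.2% lower. The median log2 fold change of the 40 was 0.32, from -1.90 to 2.60, against -0.10 for all genes. Many members are scarce. Among all genes 47.8% were called where the mean was under 50 CPM and 63.9% otherwise. Members stood at 16.1% (5 of 31) and 33.3% (3 of 9) in these ranges, which were set after the data had been seen. The libraries of the 2 groups did not overlap for 12 of the 40, while this held for 66.6% of all genes. Ccne2, Ccnf, Plk1 and Bub1 did not pass the filter. With no filter 18 of the 44 were called, the 8 and 10 more (Aurka, Aurkb, Birc5, Ccnd1, Ccnd3, Mcm3, Mcm5, Mki67, Rrm2 and Top2a). That is 40.9% of the members, against 29.6% of the 20783 genes then tested. Without the filter every gene with any count was kept, 20783 in place of 9852, and 6158 in place of 5262 were called. Of the members, 40 of 44 had already passed the filter. The order of the 2 shares thus turned with the filter, but the genes compared with changed too. The shares without a filter set mostly better counted members beside many scarce genes, so they cannot show an excess of change among members.

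**Figure D1:**
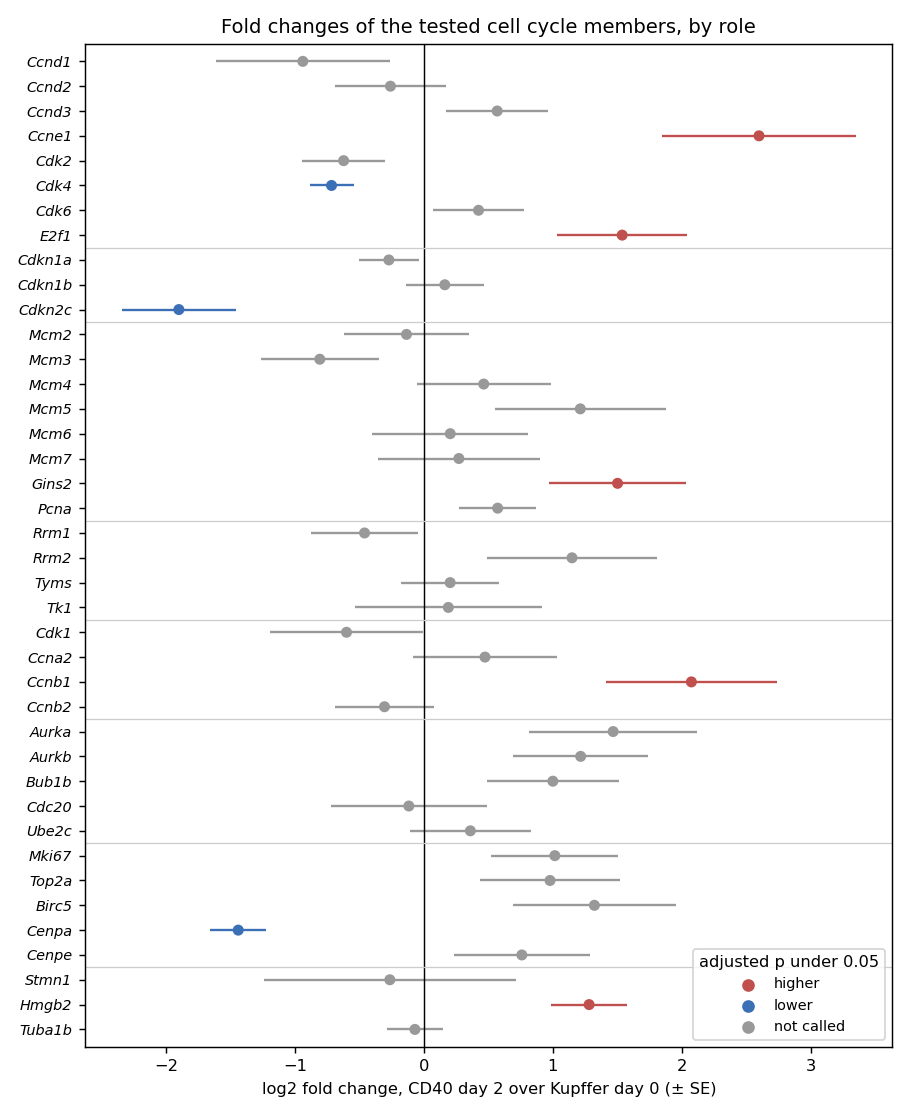
Log2 fold change of CD40 day 2 over Kupffer day 0 with its standard error for the 40 tested genes, grouped by role from G1 cyclins (top) to Stmn1, Hmgb2 and Tuba1b (bottom). The 5 red points passed the test as higher and the 3 blue points as lower, and the 32 grey points did not pass.

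What stood out was a single library. Within CD40 day 2, library b was the highest of the 4 for 35 of the 40 tested members, and for 38 of all 44, whereas it was the highest for 30.2% of all genes tested. The median difference in log2 CPM (prior count 2) between b and the mean of the other 3 was 0.92 over the members and -0.02 over all genes. Library b also exceeded both Kupffer libraries for 33 of 40, against 42.1% of all genes. Libraries c and d both lay below both Kupffer libraries for 13 of 40, a share no higher than the 43.3% of all genes. CD40 day 2 d lay at the other end. It was the lowest of the 4 for 27 of 40 members, against 24.0% of all genes, with a median difference of -0.75. The medians of a and c were 0.13 and -0.28. These are descriptions of 4 libraries of one label and carry no test. In b, the shallowest of the 4, 1 count was worth 1.41 CPM, and the part of depth was not tested.

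**Figure D2:**
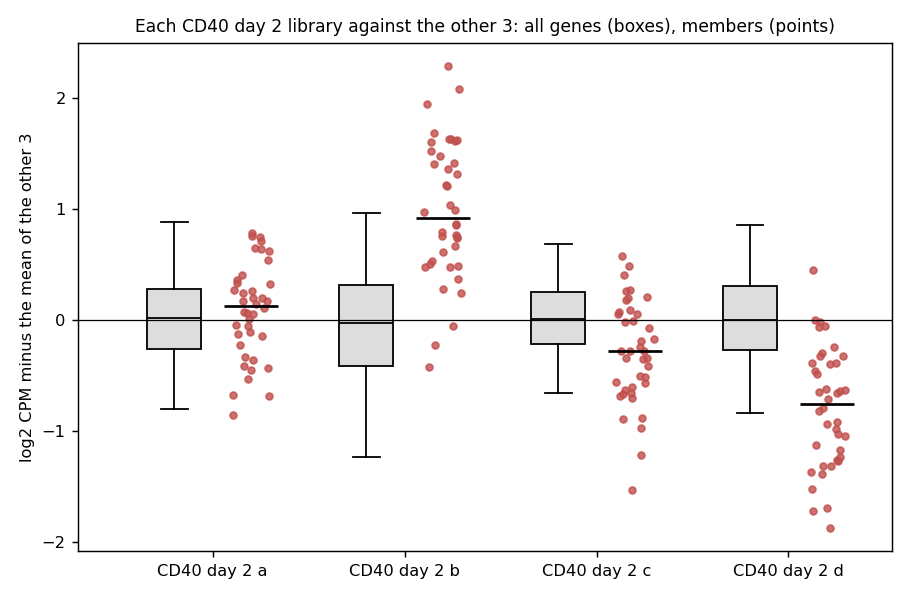
Difference of log2 CPM between each CD40 day 2 library and the mean of the other 3. Grey boxes show all genes tested (median, quartiles, whiskers from the 5th to the 95th percentile), red points the 40 tested members and black bars the members' medians, which lie at 0.92 in b and at -0.75 in d.

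The promoters below show which DNA motifs of cell cycle control lie before the starts of members that the results turn on: Mcm6, Mcm5, Cdk1 and Top2a, which were highest in library b, Ccnb1, which was higher in CD40 day 2, and Cenpa, which was lower. Each is the 250 bases before an annotated start, 5' to 3' on the gene's strand, from RefSeq on build GRCm38.p6. For Mcm5, Top2a and Cenpa this start lies inside the RefSeq gene span, which begins at 75109468, 99024199 (minus strand) and 30666877. The windows of these genes thus reach into the gene. Capitals mark matches on either strand to E2F site forms (TTTCCCGC, TTTGGCGC, TTTCGCGC or TTTGCCGC), to the cell cycle homology region (TTTGAA or TTCGAA) and to CCAAT. The E2F forms can overlap each other when read on opposite strands, as in Mcm5 and Mcm6, and TTCGAA reads the same on both.
Mcm6: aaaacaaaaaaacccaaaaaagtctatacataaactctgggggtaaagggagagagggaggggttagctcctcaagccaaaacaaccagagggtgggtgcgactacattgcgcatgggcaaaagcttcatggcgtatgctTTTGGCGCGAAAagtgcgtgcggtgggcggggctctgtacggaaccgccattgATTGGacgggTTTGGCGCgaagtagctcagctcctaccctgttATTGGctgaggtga
Mcm5: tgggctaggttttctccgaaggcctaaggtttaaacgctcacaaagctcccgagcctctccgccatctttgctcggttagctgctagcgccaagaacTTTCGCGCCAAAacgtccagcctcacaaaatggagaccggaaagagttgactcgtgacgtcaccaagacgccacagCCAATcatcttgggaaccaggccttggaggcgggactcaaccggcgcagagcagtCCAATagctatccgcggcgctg
Cdk1: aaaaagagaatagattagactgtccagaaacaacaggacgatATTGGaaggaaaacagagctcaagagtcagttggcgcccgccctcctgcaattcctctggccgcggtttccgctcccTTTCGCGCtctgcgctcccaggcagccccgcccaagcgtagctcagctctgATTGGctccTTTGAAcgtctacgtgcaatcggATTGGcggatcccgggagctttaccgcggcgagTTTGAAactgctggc
Top2a: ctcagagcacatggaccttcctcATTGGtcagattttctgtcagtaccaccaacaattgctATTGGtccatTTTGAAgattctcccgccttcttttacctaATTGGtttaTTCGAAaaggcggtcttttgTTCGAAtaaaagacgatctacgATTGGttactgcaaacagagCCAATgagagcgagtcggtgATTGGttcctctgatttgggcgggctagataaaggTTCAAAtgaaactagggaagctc
Ccnb1: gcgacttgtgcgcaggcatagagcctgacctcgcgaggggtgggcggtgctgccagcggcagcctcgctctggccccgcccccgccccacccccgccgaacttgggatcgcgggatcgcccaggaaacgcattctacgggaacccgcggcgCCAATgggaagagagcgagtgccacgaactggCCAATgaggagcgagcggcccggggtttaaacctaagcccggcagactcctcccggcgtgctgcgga
Cenpa: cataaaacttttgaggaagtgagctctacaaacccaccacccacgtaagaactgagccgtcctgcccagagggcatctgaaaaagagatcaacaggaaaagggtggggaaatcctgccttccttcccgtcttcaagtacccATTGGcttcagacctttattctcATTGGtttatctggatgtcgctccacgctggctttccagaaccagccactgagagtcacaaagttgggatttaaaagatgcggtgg

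These windows lie at chr1:128359706-128359955, minus strand (Mcm6), chr8:75109259-75109508, plus strand (Mcm5), chr10:69352913-69353162, minus strand (Cdk1), chr11:99024190-99024439, minus strand (Top2a), chr13:100786487-100786736, minus strand (Ccnb1) and chr5:30666636-30666885, plus strand (Cenpa). Mcm6 held 3 E2F forms and Mcm5 2, each beside 2 CCAAT boxes. Cdk1 held 1 E2F form, 2 homology region matches and 3 CCAAT boxes, and Top2a held 4 homology region matches and 6 CCAAT boxes. Ccnb1 and Cenpa held 2 CCAAT boxes each and no match to the E2F and homology region forms searched. Other forms of these motifs were not searched. RefSeq gave 40 such windows for 36 of the 44 members. An E2F form occurred in 5 of these 40 (Cdk2, Mcm5, Mcm6, Cdk1 and 1 of 2 starts of Mcm7), 12.5%, against 1.86% of all 32851 windows. The homology region occurred in 27.5% against 17.1%, and CCAAT in 67.5% against 33.8%. A match is a run of letters, not a shown binding site.

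The D-type cyclins, which start the cycle, were abundant in both groups and varied widely within CD40 day 2. Ccnd1 was at 440.4 and 338 CPM in Kupffer day 0 a and b, and at 222, 488, 77.8 and 54.8 CPM in CD40 day 2 a, b, c and d. Its library b exceeded both Kupffer libraries, while the other 3 lay below them, and the comparison did not pass the test (log2 fold change -0.94 ± 0.68 SE, adjusted p = 0.267). Without CD40 day 2 b it did, as lower, at -1.70 (adjusted p = 0.00701, range over all alternatives 4.46e-05 to 0.584). Ccnd2 was at 543 and 528 CPM against 526, 788, 285 and 208 CPM (log2 fold change -0.26 ± 0.43 SE, adjusted p = 0.642). Ccnd3 was at 327 and 316 CPM against 519.7, 819, 325 and 261 CPM (log2 fold change 0.57 ± 0.40 SE, adjusted p = 0.251). For all 3 the order within CD40 day 2 was b, a, c, d, and b was at 4.13 (Ccnd1), 2.32 (Ccnd2) and 2.22 times (Ccnd3) the mean of the others.

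Of the 3 kinases of this role 1 passed the test. Cdk4, partner of the D-type cyclins, fell, from 187 and 178 CPM in Kupffer day 0 to 108, 129, 115 and 95.3 CPM in CD40 day 2 (log2 fold change -0.72 ± 0.17 SE, adjusted p = 0.00572; chromosome 10, 127063535 to 127067288). The groups did not overlap, and library b was 1.21 times the mean of the other 3. Without Kupffer day 0 a the call was lost (-0.68, adjusted p = 0.0608, range over the alternatives 0.00222 to 0.0608). Cdk6, which binds the same cyclins, was at 13.2 and 11.1 CPM against 18.2, 24.0, 14.1 and 13.7 CPM and did not pass (log2 fold change 0.42 ± 0.35 SE, adjusted p = 0.33). Cdk2, the partner of cyclin E, was at 28.1 and 27.9 CPM against 14.6, 29.7, 14.6 and 17.9 CPM (log2 fold change -0.62 ± 0.32 SE, adjusted p = 0.131). Without library b, where Cdk2 stood highest, it passed as lower (-0.76, adjusted p = 0.0329, range 0.0329 to 0.361).

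Ccne1 and E2f1, which act at the step into S phase, rose. Ccne1, which encodes cyclin E1, went from 2.87 and 2.79 CPM (5 and 2 counts) to 12.7, 35.4, 20.5 and 7.15 CPM, with no overlap (log2 fold change 2.60 ± 0.75 SE, adjusted p = 0.0151; chromosome 7, 38097984 to 38107490). With so few counts in the Kupffer libraries the call rested on both of them: it was lost without a (adjusted p = 0.143) and without b (0.0633; range 1.6e-05 to 0.143). E2f1, a transcription factor of S phase genes, was at 12.1 and 1.39 CPM against 17.3, 22.6, 31.9 and 23.2 CPM (log2 fold change 1.54 ± 0.50 SE, adjusted p = 0.0266; chromosome 2, 154559400 to 154569892). It was among the few members highest in library c, and its call was lost without Kupffer day 0 b (adjusted p = 0.0989), which held 1 count, or without CD40 day 2 c (0.0717; range 0.000788 to 0.0989). Ccne2, the second cyclin E gene, held 6 and 0 counts in the Kupffer libraries and 3, 4, 1 and 5 in CD40 day 2, too few to test.

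**Figure D3:**
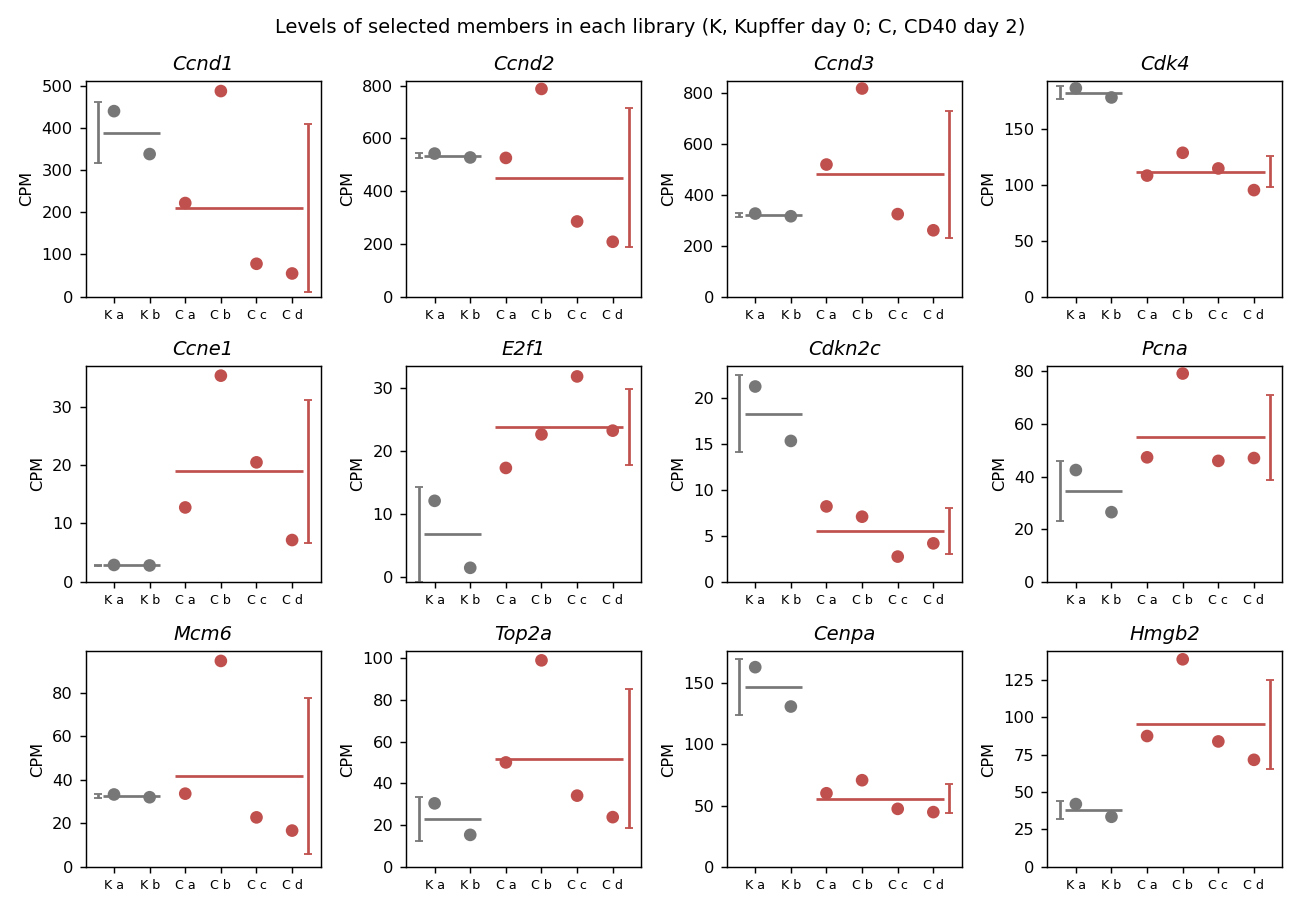
Level in CPM of 12 members in each library (K, Kupffer day 0; C, CD40 day 2), with the mean of each group as a line and its SD as a bar (n = 2 and 4). Library C b is the highest red point for 10 of the 12, the exceptions being E2f1 and Cdkn2c; Cdk4, Cdkn2c and Cenpa are lower and Ccne1, E2f1 and Hmgb2 higher in the 4 red points.

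CDK inhibitors hold the cycle back, and 1 of the 3 measured changed. Cdkn2c, which binds Cdk4 and Cdk6, fell from 21.2 and 15.3 CPM to 8.19, 7.07, 2.73 and 4.17 CPM with no overlap (log2 fold change -1.90 ± 0.44 SE, adjusted p = 0.00502; chromosome 4, 109660876 to 109666756). Without Kupffer day 0 a this call was lost (adjusted p = 0.125, range 0.000178 to 0.125), and with the stricter filter, at least 10 counts in 4 libraries, the gene was not tested. Cdkn1a, a target of p53, was at 119 and 72.4 CPM against 88.3, 63.7, 91.9 and 76.8 CPM (log2 fold change -0.27 ± 0.24 SE, adjusted p = 0.357). Library b was the lowest of CD40 day 2 here, the single tested member of which that was true. Cdkn1b, which restrains cyclin E with Cdk2, was at 61.4 and 41.8 CPM against 36.4, 82.0, 64.2 and 57.2 CPM (log2 fold change 0.16 ± 0.30 SE, adjusted p = 0.677). Summed, the 3 inhibitors were at 133, 153, 159 and 138 CPM in CD40 day 2, nearly level across its libraries, with b at 1.07 times the mean of the others.

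Of the 8 roles, the helicase and clamp had the highest ratio of library b to the rest. All 8 genes of the helicase and clamp were highest in b, and their sum there was 451 CPM against 200.2, 159 and 142 CPM in a, c and d, a ratio of 2.70 to their mean. Kupffer day 0 a and b were at 204 and 155 CPM, within the range of the other 3 CD40 libraries for b and just above it for a. Mcm6, a subunit of the helicase ring, was at 33.3 and 32.0 CPM in Kupffer day 0 and 33.7, 94.8, 22.8 and 16.7 CPM in CD40 day 2. The other ring subunits followed the same pattern, with b at 2.90 times the mean of the others for Mcm2, 3.19 for Mcm3, 3.15 for Mcm4, 2.93 for Mcm5 and 3.12 for Mcm7. None of the 6 passed the comparison of the groups (log2 fold changes -0.81 for Mcm3 to 1.21 for Mcm5, adjusted p = 0.15 to 0.838). Mcm3 was at 54.5 and 39.0 CPM against 21.8, 62.2, 18.2 and 18.5 CPM, and without library b it passed as lower (-1.25, adjusted p = 0.00148, range 0.00148 to 0.61).

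Gins2, part of the complex that joins the Mcm ring to the working fork, was the one gene of this role called, at 7.46 and 1.39 CPM against 16.4, 24.0, 11.8 and 13.1 CPM (log2 fold change 1.5 ± 0.53 SE, adjusted p = 0.0361; chromosome 8, 120581266 to 120589075). Kupffer day 0 b held 1 count, and without that library the call was lost (adjusted p = 0.151, range 0.00897 to 0.151). It was lost in 3 further settings too: without CD40 day 2 a, with library totals alone and with the stricter filter. Gins2 overlaps the gene Gse1 on the other strand, and whether the counting used strand is not given in the sources used here. Pcna, the sliding clamp of the polymerases, was at 42.5 and 26.5 CPM against 47.3, 79.2, 46.0 and 47.1 CPM, with all 4 CD40 libraries above both Kupffer libraries, and did not pass (log2 fold change 0.57 ± 0.30 SE, adjusted p = 0.132).

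Enzymes of deoxynucleotide synthesis gave 0 calls among 4 genes by edgeR, 0 at an unadjusted p under 0.05 and 0 by DESeq2; with no filter on low counts Rrm2 was called. Rrm2, the regulatory subunit of ribonucleotide reductase, was at 28.7 and 12.5 CPM against 61.9, 108, 25.9 and 20.8 CPM (log2 fold change 1.15 ± 0.66 SE, adjusted p = 0.168). Its catalytic partner Rrm1 was at 23.5 and 13.9 CPM against 18.2, 22.6, 12.3 and 8.34 CPM (log2 fold change -0.46 ± 0.41 SE). Tyms, which makes thymidylate, had 33.9 and 22.3 CPM against 38.2, 56.6, 24.1 and 23.8 CPM (log2 fold change 0.20 ± 0.38 SE). Tk1, the thymidine kinase of S phase, had 16.7 and 1.39 CPM against 9.10, 29.7, 11.4 and 5.96 CPM (log2 fold change 0.19 ± 0.73 SE). Library b was highest for all 4, at 2.97 times the mean of the others for Rrm2 and 3.37 times for Tk1, and d was lowest for all 4. Kupffer day 0 a stood above b in each of them, most for Tk1 (29 and 1 counts).

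**Figure D4:**
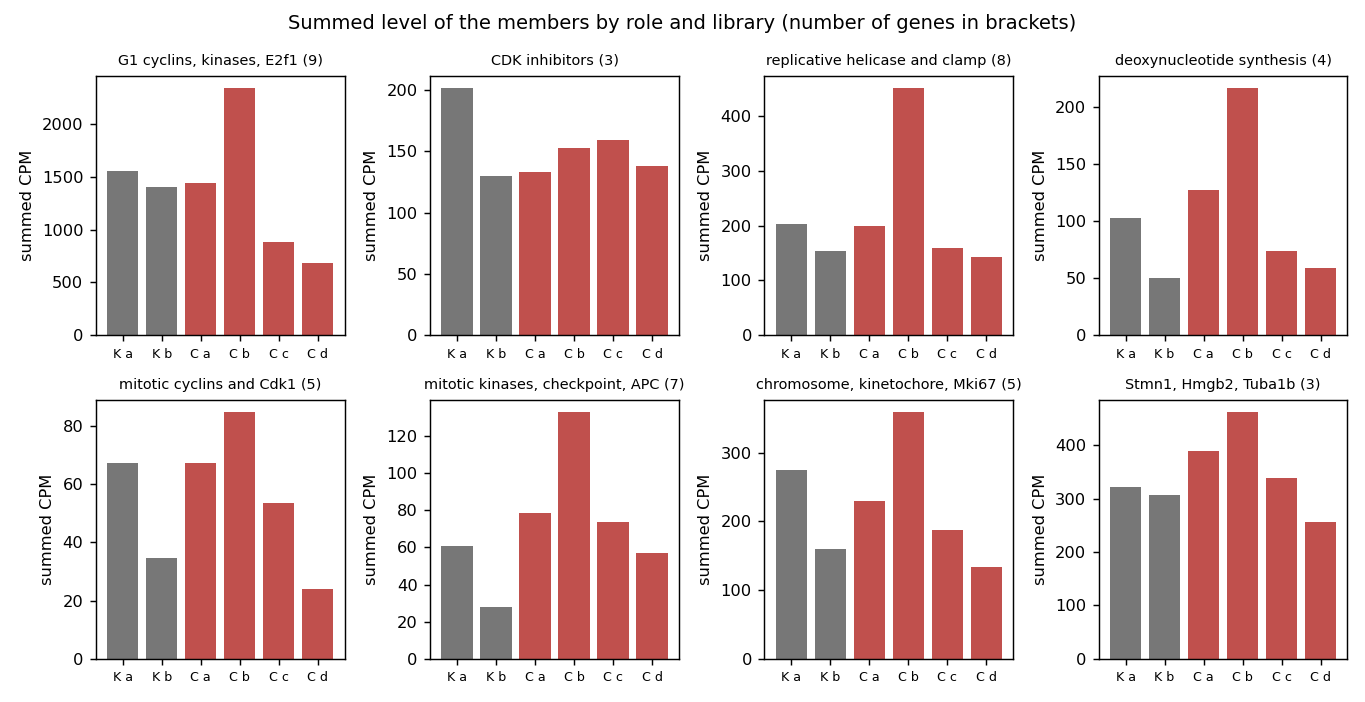
Summed CPM of the members by role in each library (bars; K, Kupffer day 0; C, CD40 day 2; the number of genes in brackets). C b is the tallest bar in 7 of the 8 panels and K a in that of the CDK inhibitors; C b reaches 451 CPM for the helicase and clamp and 216 CPM for deoxynucleotide synthesis.

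Cyclins of mitosis and their kinase were scarce. Cdk1, the mitotic kinase, was at 36.7 and 13.9 CPM in Kupffer day 0 and 20, 41.0, 14.6 and 5.96 CPM in CD40 day 2, so that each group spanned a wide range and they overlapped (log2 fold change -0.60 ± 0.60 SE, adjusted p = 0.421). Ccnb1, cyclin B1, passed as higher, with 4 and 1 counts in Kupffer day 0 a and b (2.30 and 1.39 CPM) and 12.7, 7.07, 10.9 and 4.17 CPM in CD40 day 2 (log2 fold change 2.08 ± 0.67 SE, adjusted p = 0.0244; chromosome 13, 100778739 to 100786486). This call was lost without Kupffer day 0 a (adjusted p = 0.141) and without b (0.108; range 0.00635 to 0.141). Without CD40 day 2 c, or with the stricter filter, Ccnb1 had too few counts to be tested. Unlike most members Ccnb1 was highest in library a. The related Ccnb2 was at 16.7 and 9.75 CPM against 11.8, 15.6, 11.8 and 7.74 CPM (log2 fold change -0.30 ± 0.38 SE). Ccna2, cyclin A2, was at 9.76 and 8.36 CPM against 17.3, 19.8, 13.7 and 4.17 CPM (log2 fold change 0.47 ± 0.56 SE), and Ccnf held 3 and 1 counts against 6, 1, 6 and 3.

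No mitotic kinase, checkpoint gene or gene of the anaphase-promoting complex passed the test, with 5 of 7 tested. By edgeR 2 of the 5 had an unadjusted p under 0.05 (Aurka and Aurkb), and DESeq2 called 0. Some alternatives did call them: Aurkb without Kupffer day 0 a or CD40 day 2 d, Aurka without CD40 day 2 c, and both with no filter. Aurkb, which corrects the attachment of chromosomes, was at 12.1 and 2.79 CPM against 19.1, 35.4, 18.7 and 13.7 CPM, with no overlap (log2 fold change 1.217 ± 0.52 SE, adjusted p = 0.0737; range over the alternatives 0.0145 to 0.282). Aurka, of the spindle poles, did not overlap either, with 5.74 and 2.79 CPM against 14.6, 28.3, 7.74 and 8.94 CPM (log2 fold change 1.47 ± 0.65 SE, adjusted p = 0.0818; range 0.0191 to 0.253). The checkpoint kinase Bub1b was at 3.44 and 9.75 CPM against 7.28, 12.7, 10.9 and 14.3 CPM (log2 fold change 1.0 ± 0.51 SE), and was the 1 tested member highest in library d. Ube2c and Cdc20, the ubiquitin-conjugating enzyme and an activator of the anaphase-promoting complex, were at 22.4 and 5.57 against 20, 31.1, 21.4 and 13.1 CPM (log2 fold change 0.36 ± 0.47 SE) and 9.76 and 1.39 against 7.28, 8.49, 7.28 and 2.98 CPM (log2 fold change -0.12 ± 0.60 SE). Plk1 held 7 and 4 counts in the Kupffer libraries and 6, 7, 14 and 5 in CD40 day 2, and Bub1 6 and 0 and 5, 5, 3 and 2.

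Mki67 and Top2a, the customary markers of dividing cells, were present in all 6 libraries. Mki67 was at 16.1 and 2.79 CPM (28 and 2 counts) against 24.6, 29.7, 25.0 and 14.3 CPM (log2 fold change 1.02 ± 0.49 SE, adjusted p = 0.109). Kupffer day 0 a lay within the range of CD40 day 2 and b below it, and without a Mki67 passed as higher (adjusted p = 0.0214, range 0.0214 to 0.387). Top2a, the topoisomerase that untangles sister chromosomes, was at 30.4 and 15.3 CPM against 50.1, 99.0, 34.1 and 23.8 CPM (log2 fold change 0.98 ± 0.54 SE, adjusted p = 0.154). Birc5, survivin, was at 31.0 and 5.57 CPM against 69.2, 93.4, 40.5 and 21.4 CPM (log2 fold change 1.32 ± 0.63 SE, adjusted p = 0.103); DESeq2 called it (adjusted p = 0.031), and so did edgeR without CD40 day 2 d (0.0272; range 0.000119 to 0.38). Cenpe, a kinetochore motor, was at 34.4 and 5.57 CPM against 26.4, 66.5, 40.1 and 29.8 CPM (log2 fold change 0.76 ± 0.53 SE).

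Cenpa alone of this role passed the test. It encodes the histone H3 variant of centromeres (chromosome 5, 30666877 to 30674837) and fell from 163 and 131 CPM in Kupffer day 0 to 60.1, 70.7, 47.3 and 44.7 CPM in CD40 day 2 (log2 fold change -1.44 ± 0.22 SE, adjusted p = 0.000372). Both Kupffer libraries stood well above all 4 CD40 libraries, and the call held in all 12 alternatives (adjusted p = 1.41e-08 to 0.0132). Within CD40 day 2 it kept the common order, with b highest and d lowest.

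Hmgb2, a chromatin protein that is abundant in cycling cells, was the 1 rise called in all 12 alternatives. It was at 41.9 and 33.4 CPM in Kupffer day 0 and 87.4, 139, 83.8 and 71.5 CPM in CD40 day 2 (log2 fold change 1.28 ± 0.29 SE, adjusted p = 0.0046; chromosome 8, 57511843 to 57515999), with no overlap (adjusted p = 1.94e-05 to 0.046 over the alternatives). Tuba1b, an alpha-tubulin, was at 272 and 272 CPM against 295, 309.8, 254 and 183 CPM (log2 fold change -0.07 ± 0.22 SE, adjusted p = 0.812). Reads of Tuba1b and Hmgb2 may be shared with near-identical tubulin genes and processed copies. Stmn1, which takes microtubules apart, held 12 and 1 counts in the Kupffer libraries and 7, 10, 2 and 2 in CD40 day 2 (log2 fold change -0.26 ± 0.98 SE), too scarce to compare closely.

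Added up by phase, library b was further from the others for replication than for mitosis. The 12 genes of the helicase, clamp and deoxynucleotide roles summed to 668 CPM (exact Poisson interval 609 to 731) in b. The same sum was 328 CPM (exact Poisson interval 295 to 363) in a, 233 in c and 201 CPM in d, a ratio of 2.63 between b and their mean. The 17 mitotic genes summed to 577 CPM (exact Poisson interval 523 to 636) in b, and to 376, 315 and 215 CPM in a, c and d, a ratio of 1.91. The intervals are at the 95% level and cover counting error only. Whether the ratios differ was not tested.

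Kupffer day 0 a exceeded Kupffer day 0 b for 38 of the 40 tested members, where this held for 52.8% of all genes. The 17 mitotic genes summed to 403 CPM (exact Poisson interval 374 to 434) in a and 223 CPM (exact Poisson interval 189.6 to 260.2) in b, a ratio of 1.81. Cenpa alone gave 163 and 131 CPM of these sums, with a ratio of 1.25, so the sum of the other mitotic genes had a ratio above 1.81. The ratio was 2.05 for deoxynucleotide synthesis, 1.32 for the helicase and clamp and 1.11 for the 9 genes of the G1 role. Kupffer day 0 b also held more RNA of other cells. Its 10 neutrophil markers, led by S100a8 and S100a9, summed to 3100.1 CPM against 905 in a, its 8 B and plasma cell markers, led by Igkc and Jchain, to 1163 against 56.8, and its 11 hepatocyte markers, led there by Fabp1, to 1997 against 806. Not all neutrophil markers showed this: Camp (55.1 and 55.7), Ngp (116 and 121) and Ltf (19.5 and 19.5 CPM) were near level in a and b. Kupffer day 0 a was above b for 1 of the 9 neutrophil markers tested. The part of these other cells in the gap between a and b was not tested. The calls depend on which Kupffer library is taken. Without b, Hmgb2 was the only member called higher, and without a Aurkb, Cenpe, E2f1, Gins2 and Mki67 were called higher as well. The share of all genes called fell too in both fits, each of which left 1 Kupffer library.

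Markers of conventional dendritic cells stood out in CD40 day 2 b as well. All 8 listed were in the table, none at 0 counts in b, and b was highest for 7 of the 7 tested. Cd209a, not tested, held 7, 2, 5 and 8 counts in CD40 day 2 a, b, c and d. The 8 markers summed to 798, 1118, 682 and 689.8 CPM there and to 156 and 209 CPM in Kupffer day 0. Between the groups 3 were called higher in CD40 day 2 and 1 lower. The lower was Zbtb46, at 88.4 and 98.9 CPM in Kupffer day 0 against 19.1, 45.3, 5.92 and 5.36 CPM. Naaa and Batf3, the most abundant, were at 644 and 179.7 CPM in b, and at 508 to 536 and 109.6 to 150.2 CPM in the others. Xcr1, a chemokine receptor of cross-presenting dendritic cells, was at 86.3 CPM in b and 14.6, 10 and 5.96 CPM in a, c and d. Flt3, a growth factor receptor of dendritic cell precursors, was at 41.0 CPM in b and 11.8, 6.37 and 4.77 CPM in the others. Both were singled out after their values were seen. Classical monocyte markers were lowest in b for 7 of 9 genes, with a sum of 16680.1 CPM against 19969 to 23757 CPM. The part of these cells in the level of the cell cycle genes was not tested.

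Library d, lowest for most members, held the most erythroid RNA, with 10 listed markers summing to 799 CPM against 109 to 300.0 in the other CD40 libraries. Hbb-bs and Hbb-bt, which encode beta-globins, led it at 427 and 153 CPM in d, while Klf1 and Gata1, which mark nucleated precursors, held there 1 and 0 counts. Library d was the highest of CD40 day 2 for 4 of the 5 erythroid markers tested. The exception, Car2, was at 22.8, 66.5, 16.8 and 9.53 CPM in a, b, c and d, so highest in b and lowest in d. Slc4a1 was at 0 counts in all 6 libraries. The part of these cells was not tested. T and NK cell markers, led by Gzma and Nkg7, summed to 245 and 272 CPM in Kupffer day 0 and 299, 325, 254 and 247 CPM in CD40 day 2. The 8 markers of granulocyte and monocyte progenitors summed to 206 and 295 CPM in Kupffer day 0. In CD40 day 2 they summed to 51.9, 34, 38.7 and 33.4 CPM. Kit alone gave 193 and 259 CPM of the Kupffer sums, while Elane, Mpo, Prtn3, Ctsg, Ms4a3 and Fcnb held 0 to 2 counts each there. The Kupffer sums thus mostly follow Kit and do not show more RNA of progenitors. Of the 8 markers 3 were tested. Prtn3, an early granulocyte protease, was higher, with 2 and 1 counts against 24, 7, 42 and 36 (edgeR, adjusted p = 0.000388), and Kit and Cd34 were lower. Mpo held 1, 0, 1, 0 counts in CD40 day 2 a to d and Elane 2, 1, 3, 4.

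Other genes of the same machinery were taken from 6 wider lists, 200 genes in all, of which 191 were in the table and 139 were tested. Of these 22 were higher and 24 lower, 33.1% against 53.4% of all genes, with a median log2 fold change of 0.10. Without Kupffer day 0 a fewer of these genes were called, and so were fewer of all genes. Library b was the highest of CD40 day 2 for 85 of the 139. This pattern held for origin and fork genes (33 of 37) and mitosis and cytokinesis genes (31 of 42), but for 4 of 20 further CDK inhibitors and p53 targets.

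Of 37 further origin and fork genes, 7 were higher and 3 lower, so 27% were called against 53.4% of all genes. Rfc2 and Rfc5, subunits of the loader that places Pcna on DNA, were at 140.3 ± 10.6 CPM in CD40 day 2 (SD, n = 4) against 59.0 ± 2.66 in Kupffer day 0 (n = 2), and at 42.6 ± 14 against 10 ± 3.59 (adjusted p = 0.000287 and 0.00182). Rnaseh2b, of the enzyme that removes ribonucleotides from DNA, was at 63.5 ± 8.03 against 22.4 ± 8.08 CPM. Orc6, of the origin recognition complex, went down, to 33.8 ± 7.29 from 101 ± 7.16 CPM (adjusted p = 0.000155), as did Pola2 of DNA polymerase alpha (26 ± 6.23 from 55.8 ± 1.81) and the fork protein Timeless (12.6 ± 9.07 from 38.9 ± 1.83).

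Nucleotide genes outside the 44 gave 6 higher and 0 lower of 13. Of all genes 53.4% were called, 23.2% as higher, and of this list 46.2%. The lowest adjusted p was that of Samhd1, which breaks down deoxynucleotides and restricts viruses, at 865 ± 114 against 141 ± 0.409 CPM (adjusted p = 4.48e-06). Dck, the deoxycytidine kinase of the salvage route, was at 147 ± 47.8 against 27.1 ± 5.02 CPM. Library b was the highest of CD40 day 2 for 9 of the 13, against 30.2% of all genes, among them Dut, which clears dUTP, at 3.02 times the mean of the others. The sum of the list, 1941, 2020.1, 2001 and 1739 CPM in a, b, c and d, did not show this, since Samhd1, Nme1 and Cmpk1 made up most of it and b was at 0.848, 1.23 and 0.758 times the mean of the others for them. Dut, Nme1 and Cmpk1 were singled out after their values were seen.

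Mitosis and cytokinesis genes were higher in 2 and lower in 7 of 42 cases, so 21.4% were called against 53.4% of all genes. Those lower included Tubb4b, a beta-tubulin (124 ± 26.1 against 327 ± 9.38 CPM, adjusted p = 0.000261), Hmgb1 (16.2 ± 5.27 against 32.3 ± 10.3) and the microtubule protein Ckap5 (36.2 ± 10.2 against 62.9 ± 0.343). Within the Rb, E2F and DREAM family 1 of 12 was higher and 3 were lower (33.3% called). Among those lower was E2f4, an E2F that mostly represses (32.1 ± 6.43 against 56.5 ± 7.00 CPM, adjusted p = 0.0153). In the list of further G1 genes 20% were called. Of these 15 genes 1 was higher, the ubiquitin-conjugating enzyme Cdc34 (91.0 ± 8.18 against 42.6 ± 3.11). The 2 lower were Ccnl1 (197 ± 29.6 against 380.0 ± 11.5) and Cdk7 of the CDK-activating kinase (35.6 ± 3.46 against 53.2 ± 5.46).

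Further CDK inhibitors and p53 targets were called in 14 of 20 cases, with 5 higher and 9 lower. That is 70%, against 53.4% of all genes (23.2% higher and 30.2% lower). Pmaip1 and Bax, which promote apoptosis, and Mdm2, which degrades p53, rose (136 ± 17.4 against 30.8 ± 0.258, 271 ± 34.5 against 133 ± 16.6 and 136 ± 21.7 against 72.6 ± 3.65 CPM). Gadd45g, a stress gene, fell from 364 ± 1.18 to 50.2 ± 8.93 CPM (adjusted p = 2.03e-06), Plk2 from 207 ± 7.42 to 54.0 ± 17.2, and Sesn1, a sestrin, from 73.8 ± 11.8 to 17.5 ± 7.43. In Kupffer day 0 the endothelial markers given above were high beside the genes that fell, and their part in these falls was not tested.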

How the data were processed

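Per the labels' protocol, poly(A) RNA was barcoded with molecular identifiers at reverse transcription, pooled, amplified and sequenced from the 3' end. The authors deposited raw counts per gene symbol. The submitters' processing notes name build GRCm38.p6 and DESeq2 1.22.2; aligner, counter, annotation and the use of strand or identifiers in counting: not given in the sources used here. Columns carry a group but no replicate number; 6 of 12 were not read by gene.

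Counts of 6 libraries were fitted with edgeR 4.0.16 in R 4.3.3 (TMM, filterByExpr, quasi-likelihood test, two-sided, Benjamini-Hochberg over 9852 genes, threshold 0.05). The SE is the log2 fold change over the square root of F. The code was tested on simulated data. Libraries of a group differed beyond counting noise (chi-square over its degrees of freedom, 3.17 to 11.7). All members were named, and of each wider list the 3 lowest adjusted p per direction with a mean of at least 20 CPM; some items that this rule names are not reported here. Members and lists were chosen with earlier results of these data known. Gene positions are from RefSeq on GRCm38.p6; by GENCODE M21, 21 members overlap another annotated gene, 2 of them called (Cdk4 and Gins2). Alternatives were other scalings, filters and tests, and leaving out each library.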

Additional observations from a re-analysis of the deposited data

Results flagged for a closer look

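In CD40 day 2, the group of 4, the gap between the extreme library and its nearest neighbour was compared with the whole range of the group, and a share above Dixon's 95% critical value for 4 samples was taken as apart. This was done for each of the 44 members and the 8 summed roles, 52 groups in all. By chance about 1 in 20 such groups would be taken as apart, or 2.6 of the 52, and the 3 found are close to that number. The groups are not independent, since the 8 roles sum the same members, so this count cannot decide whether chance gave the 3. The 3 found were genes, each in library b: Mcm2 at 29.7 CPM against 9.10 to 10.9 in the others, Mcm3 at 62.2 CPM against 18.2 to 21.8, and Pcna at 79.2 CPM against 46.0 to 47.3.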

How the results depend on the processing

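No paired analysis was possible because the columns carry no replicate number. The 8 called members became 18 without a filter on low counts (13 higher, 5 lower), 40.9% of members against 29.6% of all genes tested. The genes tested then included every gene with any count, 20783 against 9852 with the filter. With at least 10 counts in 4 libraries the called members became 5 (3 higher). This stricter filter left 35 members tested, without Ccnb1 and Cdkn2c. The cause of the gain without a filter was not tested. Leaving out 1 library gave 4 to 11 members (1 to 7 higher, 1 to 6 lower), 3206 to 5514 genes in all (1406 to 2551 higher, 1800 to 2963 lower; with all libraries 5262, 2288 and 2974) and 28 to 54 of the wider lists (46 with all libraries). Where 1 Kupffer library was left, its spread was taken from the CD40 libraries. Without CD40 day 2 b, 11 members were called, the 8 and Ccnd1, Cdk2 and Mcm3, all 3 lower. DESeq2 called 9, the 8 and Birc5. Cenpa and Hmgb2 kept their calls in all 12 settings. Scaling by library totals alone moved the median of all genes from -0.10 to -0.27 and left 7 members called. The summed CPM of the 8 roles moved by less than their SD, and the number of members highest in b stayed within 1.5 times of 38.

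Fold changes (log2) that changed sign were those of genes not called. Over the 6 fits that each left out 1 library they ran from -0.55 to 0.15 for Cdkn1a, from -0.047 to 0.50 for Cdkn1b, from -0.49 to 0.082 for Mcm2, from -0.40 to 0.48 for Mcm6, from -0.15 to 0.61 for Mcm7, from -0.70 to 0.046 for Rrm1, from -0.0026 to 0.60 for Tyms, from -0.40 to 3.09 for Tk1, from -1.02 to 0.39 for Cdk1, from -0.55 to 0.21 for Ccnb2, from -0.12 to 1.87 for Ube2c, from -0.64 to 1.60 for Stmn1 and from -0.13 to 0.066 for Tuba1b. DESeq2 gave Cdc20 0.10, Stmn1 0.28, and library totals alone gave Cdkn1b -0.0013. In simulated counts over 9852 genes, 32.6% of 2-fold and 92.5% of 4-fold changes were called. Only 200 genes were changed there, against 5262 called in the data, which makes the adjusted threshold stricter in the simulation. The changed genes were also drawn from all levels. These shares therefore do not give the chance of missing a change of a scarce member in the real comparison.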
